A study of Homo sapiens with 4 samples.

Results

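Interferon-stimulated genes are the genes that cells switch on when an interferon binds its receptor, and most of their products block viruses or help to detect them. The set described here held 35 of them out of 48162 genes in the authors' table. It was chosen as a list of symbols with no threshold on measured values, but with earlier results of these data known. Expression was measured by RNA sequencing of poly(A)-selected RNA in MDA-MB-231, an established line of triple-negative breast cancer cells, in 2 libraries of cells exposed to MGH-CP1 at 10 µM for 24 hours and in 2 libraries of cells given vehicle for the same time. MGH-CP1 is named in the series title as a blocker of palmitoylation of TEAD, the family of DNA-binding partners of YAP and TAZ. What the vehicle was is not stated, both groups are a single cell line with no added interferon named in the labels, and nothing says that the libraries came from separate cultures, so p-values measure only the spread between libraries.

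As background, type I and type III interferons signal through the kinases JAK1 and TYK2 to a transcription factor complex that includes STAT2 and IRF9 and binds the interferon-stimulated response element in the promoters of these genes. Interferon gamma acts mainly through another element, called GAS. Many cancer lines keep part of this programme on without added interferon, and IRF1, IRF7 and the STATs can drive parts of it.

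Of the 35 genes, 31 reached the limit for testing, a mean of 1 FPKM over the 4 libraries (FPKM is fragments scaled by gene length and by the reads of the library). With MGH-CP1, 14 were higher and 5 were lower than with vehicle (limma, adjusted p under 0.05), and the other 12 did not pass. Among all 11790 genes tested, 20.0% were called higher and 25.1% lower. The members and the pathway lists below were chosen with earlier results of these data known. Their counts beside these shares are a description and no test of the set or the lists. OAS1 and MX2, both among the 14, had vehicle means of 0.696 and 0.967 FPKM and reached the limit only through the MGH-CP1 libraries. Groups did not overlap for 24 of the 31, against 74.1% of all genes tested. The median log2 fold change was 0.23 over the 31 genes and -0.02 over all genes tested. The members that changed spanned a log2 fold change of -0.52 for OAS3 to 0.77 for IRF7, on a log2(FPKM + 1) scale that understates the change of genes with low levels.

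**Figure D1:**
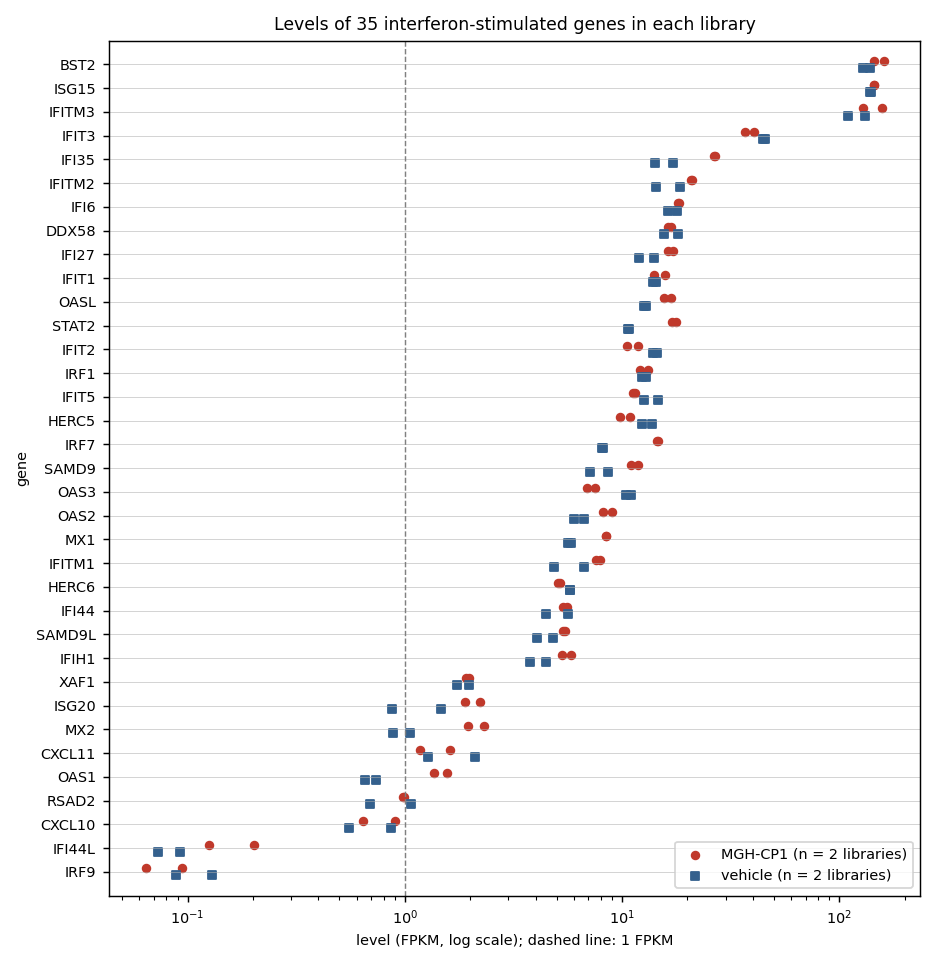
Level of each of the 35 genes in every library (FPKM, log scale), ordered by the mean of the 4 libraries, with MGH-CP1 as circles above vehicle as squares. BST2, ISG15 and IFITM3 lie above 100 FPKM in all 4 libraries, whereas IFI44L and IRF9 are the lowest genes, at 0.0642 to 0.202 FPKM.

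Vehicle-treated cells already expressed most of these genes. BST2, the cell-surface tether of enveloped viruses, stood at 160 and 145 FPKM with MGH-CP1 and at 129 and 139 FPKM with vehicle. ISG15, a ubiquitin-like protein, and IFITM3, a membrane protein that hinders viral fusion, were the only others above 100 FPKM in every library. IFIT3 followed at 37.0 and 40.7 FPKM with MGH-CP1 and 45.3 and 44.7 FPKM with vehicle, and the next genes in order, IFI35, IFITM2, IFI6 and DDX58, overlapped in their levels. The sum over the 35 genes was 777 and 746 FPKM in the MGH-CP1 libraries and 686 and 676 FPKM in the vehicle libraries. In bulk RNA, a change in fewer cells and a change in RNA per cell cannot be told apart.

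Between 16790645 and 18485701 reads fell on listed genes in each library. The share of reads from mitochondrial genes was 1.81% and 1.54% with MGH-CP1 and 0.676% and 0.645% with vehicle; leaving these genes out of the scaling gave 14 higher and 4 lower members. Of the markers of the line, 9 of 10 reached the limit for testing and SPARC did not. Of these 9, 2 were called higher (22.2%) and 5 lower (55.6%), against 20.0% and 25.1% of all genes tested. Their median log2 fold change was -0.30. The 10 markers summed to 1979 and 1967 FPKM with MGH-CP1 and 2351 and 2316 FPKM with vehicle. ESR1 and PGR, the hormone receptor genes, had at most 0.00912 FPKM. ERBB2, also listed as a gene that a triple-negative line should lack or hold low, averaged 25.4 FPKM over all libraries and was not called. Of 15 leukocyte markers, 13 were under 1 FPKM in every library, with CLEC4C and LILRA4 at 0 in all. Their summed level was 6.96 and 7.21 FPKM with MGH-CP1 and 5.0 and 5.86 FPKM with vehicle. CSF1R, a macrophage receptor gene, gave part of that sum and rose to 3.0 ± 0.269 FPKM with MGH-CP1, against 1.54 ± 0.255 FPKM with vehicle (SD, n = 2 each). The part of these differences in the results below was not tested. Fibroblast markers had 5 of 8 members under 1 FPKM in every library, and the 4 endothelial markers listed were all under 1 FPKM, with summed levels of 6.32 and 5.88 FPKM with MGH-CP1 and 7.60 and 5.02 FPKM with vehicle for fibroblasts, and 0.469 and 0.739 FPKM with MGH-CP1 and 0.619 and 0.938 FPKM with vehicle for endothelium.

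The promoters were searched for core letters of the response element, TTTC half-sites at a fixed spacing, on either strand. Half-sites at another spacing were not counted, such as GAAACGAAA in the OAS1 bases printed below and GAAATGAAA before the IFI35 start. The counts by call hold for the spacing searched only. RefSeq promoters (build GRCh38.p14, 250 bases before to 50 after the start) were matched for 29 of the 35 genes, all but IFIT2, IFITM2, MX2, OAS2, OASL and IRF7. The core letters TTTCNNTTTC, on either strand, were in 18 of the 29 (62.1%), against 3.65% of all 27305 promoters. They were in 6 of the 9 matched genes called higher, in 4 of the 4 called lower and in 6 of the 12 that did not pass, so genes of both directions carried them. The GAS letters TTCNNNGAA, which can overlap that motif, were in 8 of the 29 against 7.94% of all promoters, and in 4 of the 9 called higher, 0 of the 4 called lower and 3 of the 12 that did not pass. GGAATG, the core letters that TEAD proteins bind, also searched on both strands, were in 6 of the 29 (20.7%) against 14.2% of all promoters, namely IFI35 and STAT2 among the genes called higher, IFIT3 among those called lower, and IFIT1, IRF9 and CXCL10. A match is a description of letters and not a binding site. The 160 bases before the start are given for genes on which the results below turn, with matches to TTTCNNTTTC in capitals. OAS1 (chr12:112906802-112906961, plus strand) and OAS3 (chr12:112938314-112938473, plus strand) are shown because they are neighbours, of which OAS3 fell and OAS1, tested only through its MGH-CP1 level, was called higher. STAT2 (chr12:56360108-56360267, minus strand) and IFI27 (chr14:94110576-94110735, plus strand) are shown as genes called higher without and with the letters. IFIT3 (chr10:89327837-89327996, plus strand) and HERC5 (chr4:88456959-88457118, plus strand) are shown as genes called lower, and ISG15 (chr1:1013337-1013496, plus strand) as an abundant gene that was not called.
OAS1: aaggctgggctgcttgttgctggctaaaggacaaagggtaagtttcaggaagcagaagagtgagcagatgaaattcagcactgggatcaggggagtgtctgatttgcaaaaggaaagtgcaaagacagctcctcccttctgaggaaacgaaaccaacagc
OAS3: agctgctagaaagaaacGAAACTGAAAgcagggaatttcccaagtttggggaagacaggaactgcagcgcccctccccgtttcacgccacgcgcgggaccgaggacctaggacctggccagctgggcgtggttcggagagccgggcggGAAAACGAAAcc
STAT2: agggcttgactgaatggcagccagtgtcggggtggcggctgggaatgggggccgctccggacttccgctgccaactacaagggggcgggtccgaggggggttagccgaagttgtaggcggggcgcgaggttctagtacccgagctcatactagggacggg
IFI27: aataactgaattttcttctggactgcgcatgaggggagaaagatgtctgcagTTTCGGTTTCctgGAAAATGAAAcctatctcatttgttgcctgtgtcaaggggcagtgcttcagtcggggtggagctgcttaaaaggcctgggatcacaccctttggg
IFIT3: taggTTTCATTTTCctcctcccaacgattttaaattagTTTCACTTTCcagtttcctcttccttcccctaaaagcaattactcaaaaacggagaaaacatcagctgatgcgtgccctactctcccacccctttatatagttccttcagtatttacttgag
HERC5: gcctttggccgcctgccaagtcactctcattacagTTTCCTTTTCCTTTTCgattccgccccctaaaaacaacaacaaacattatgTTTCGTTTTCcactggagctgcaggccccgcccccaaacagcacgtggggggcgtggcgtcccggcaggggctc
ISG15: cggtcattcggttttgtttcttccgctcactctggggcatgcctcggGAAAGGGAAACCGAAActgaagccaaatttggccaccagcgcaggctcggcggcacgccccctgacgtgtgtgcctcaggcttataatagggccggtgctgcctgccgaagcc

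Both of the transcription factor genes that changed were higher with MGH-CP1, and they included the largest rise of the set. IRF7 (ENSG00000185507, hg19 chromosome 11, 612553 to 615999, minus strand) encodes the factor that amplifies type I interferon production. It had 14.5 and 14.6 FPKM with MGH-CP1, against 8.15 and 8.07 FPKM with vehicle. The groups were far apart relative to their spread, a 1.79-fold difference of the means with an estimate of 0.77 ± 0.07 on the log2 scale (SE; limma, adjusted p = 0.000162). STAT2 (ENSG00000170581, chromosome 12, 56735381 to 56753939, minus strand), a factor of the type I interferon response, had 17.8 and 16.9 FPKM with MGH-CP1, against 10.6 and 10.8 FPKM with vehicle. Its log2 fold change was 0.65 ± 0.07 (limma, adjusted p = 0.000313), and the promoter printed above holds no match to TTTCNNTTTC. IRF1, a factor of the interferon gamma response, had 13.1 and 12 FPKM with MGH-CP1 and 12.3 and 12.9 FPKM with vehicle. The groups overlapped, and the 95% interval of its log2 fold change ran from -0.18 to 0.17 (limma, adjusted p = 0.956). IRF9, the DNA-binding subunit of the complex with STAT2, was listed at 3 and 2 reads with MGH-CP1 and 3 and 4 reads with vehicle. It lies wholly inside an entry named RNF31 on the same strand in the authors' table. That entry was listed at a mean of 0.0910 FPKM with MGH-CP1 and 0.0406 FPKM with vehicle. Neither its values nor those of IRF9 can be taken as the level of the gene. Another entry named RNF31 had a mean of 5.89 FPKM with MGH-CP1 and 4.64 FPKM with vehicle and was called higher.

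**Figure D2:**
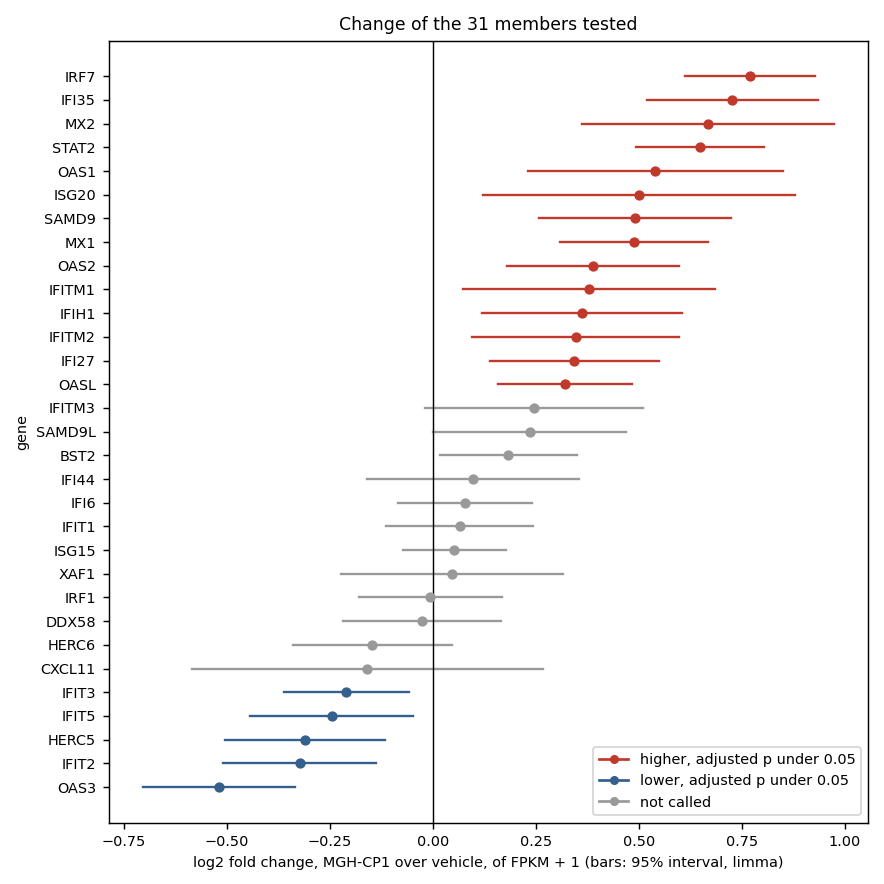
Log2 fold change of MGH-CP1 over vehicle, on the log2(FPKM + 1) scale, for the 31 tested genes with its 95% interval from limma. Red genes (14) were called higher, blue genes (5) lower and grey genes (12) were not called.

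The 2′-5′-oligoadenylate synthetases, which make the messenger that activates RNase L, did not change in a common direction. OAS1, OAS3 and OAS2 lie next to each other on the plus strand of chromosome 12 (113344582 to 113449528), with gaps of 6167 and 5146 bases. OAS3 (ENSG00000111331, 113376157 to 113411054), the large member of the family, had 6.88 and 7.49 FPKM with MGH-CP1, against 10.5 and 11 FPKM with vehicle. It was the largest fall of the set, with a log2 estimate of -0.52 ± 0.08 (limma, adjusted p = 0.00177). OAS1 (ENSG00000089127, 113344582 to 113369990) had 1.37 and 1.57 FPKM with MGH-CP1, against 0.734 and 0.658 FPKM with vehicle, and rose by 0.54 ± 0.13 on the log2 scale (limma, adjusted p = 0.0138). These values rested on 47 and 53 reads with MGH-CP1 and 27 and 22 reads with vehicle, and the gene passed the limit for testing only through the MGH-CP1 libraries. OAS2 had 8.16 and 9.02 FPKM with MGH-CP1, against 5.99 and 6.66 FPKM with vehicle, a log2 fold change of 0.39. OASL, a relative without synthetase activity that lies farther along the chromosome, had 15.6 and 16.8 FPKM with MGH-CP1, against 12.9 and 12.6 FPKM with vehicle, a log2 fold change of 0.32. For each of the 4 genes the groups did not overlap, as for 74.1% of all genes tested. The ratio of OAS3 to OAS2 in FPKM was 0.843 and 0.831 in the MGH-CP1 libraries and 1.75 and 1.65 in the vehicle libraries, so the more abundant of the 2 genes was OAS2 with MGH-CP1 and OAS3 with vehicle. The ratio of OAS3 to OAS1 was 5.03 and 4.77 with MGH-CP1 and 14.3 and 16.7 with vehicle. These ratios were not tested. Without MGH-CP1 replicate 2 the calls of OAS1, OAS2 and OASL were lost (limma, adjusted p = 0.0954, 0.0846 and 0.0833), as were those of OAS1 and OAS2 with no filter on low values (limma, adjusted p = 0.0537 and 0.0585), whereas that of OAS3 held in all 15 alternatives.

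The IFIT genes, whose products bind viral RNA that lacks host cap marks, were lower or not called. IFIT2, IFIT3, IFIT1 and IFIT5 follow each other on the plus strand of chromosome 10 (91061712 to 91180758). IFIT2 had 10.5 and 11.8 FPKM with MGH-CP1, against 13.9 and 14.5 FPKM with vehicle, a log2 fold change of -0.32. IFIT3, which stabilizes IFIT1, fell by 0.21 on the log2 scale, and IFIT5 fell by 0.24, with 11.2 and 11.4 FPKM with MGH-CP1 and 12.6 and 14.6 FPKM with vehicle. The 3 falls were small: means were 1.27-fold lower with MGH-CP1 for IFIT2, 1.16-fold lower for IFIT3 and 1.2-fold lower for IFIT5. IFIT1 had 14.0 and 15.7 FPKM with MGH-CP1 and 13.9 and 14.3 FPKM with vehicle, with groups that overlapped and a 95% interval of its log2 fold change of -0.11 to 0.24. The ratio of IFIT3 to IFIT1 was 2.64 and 2.59 with MGH-CP1 and 3.25 and 3.12 with vehicle, and that of IFIT2 to IFIT1 was 0.750 and 0.754 with MGH-CP1 and 0.997 and 1.01 with vehicle. Without MGH-CP1 replicate 1 the calls of IFIT2, IFIT3 and IFIT5 were lost (limma, adjusted p = 0.116, 0.276 and 0.185); that of IFIT3 was also lost without MGH-CP1 replicate 2 (limma, adjusted p = 0.0522), and that of IFIT5 without MGH-CP1 replicate 2 and without vehicle replicate 2 (limma, adjusted p = 0.142 and 0.175). Over all 15 alternatives the call was lost in 2 for IFIT2, in 5 for IFIT3 and in 9 for IFIT5. For IFIT5 these included scaling without mitochondrial genes, median-of-ratios scaling and quantile normalization (limma, adjusted p = 0.0588, 0.0668 and 0.0943). For IFIT3 they included quantile normalization and no mean-variance trend (limma, adjusted p = 0.0784 and 0.0770). IFIT1, IFIT2 and IFIT3 overlap LIPA on the opposite strand, at a mean of 30.5 FPKM with MGH-CP1 and 26.2 FPKM with vehicle. How reads were shared between strands is not given in the sources used here.

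The MX GTPases, which trap viral nucleoproteins and capsids, both rose. MX2 (ENSG00000183486, chromosome 21, 42733870 to 42781317, plus strand) had 1.95 and 2.31 FPKM with MGH-CP1, against 0.879 and 1.06 FPKM with vehicle. The means differed 2.20-fold, with a log2 fold change on the FPKM + 1 scale of 0.67 ± 0.13 (limma, adjusted p = 0.00532). The vehicle mean was 0.967 FPKM, so this gene too passed the limit for testing only through the MGH-CP1 libraries. Its neighbour MX1 had 8.40 and 8.41 FPKM with MGH-CP1, against 5.61 and 5.80 FPKM with vehicle, a log2 fold change of 0.49. The paralogs SAMD9 and SAMD9L, inhibitors of poxvirus translation that sit side by side on chromosome 7, were both listed higher, but only the first passed. SAMD9 (ENSG00000205413, 92728829 to 92747336, minus strand) had 11 and 11.8 FPKM with MGH-CP1, against 7.10 and 8.60 FPKM with vehicle, and rose by 0.49 ± 0.10 on the log2 scale (limma, adjusted p = 0.00620), a call lost with no filter on low values (limma, adjusted p = 0.0565). SAMD9L had 5.32 and 5.48 FPKM with MGH-CP1 and 4.08 and 4.83 FPKM with vehicle, with an interval of 0.00 to 0.47 (limma, adjusted p = 0.0931). That SAMD9 passed and SAMD9L did not is no test of a difference between them, and SAMD9L was called without vehicle replicate 2 (limma, adjusted p = 0.0321).

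**Figure D3:**
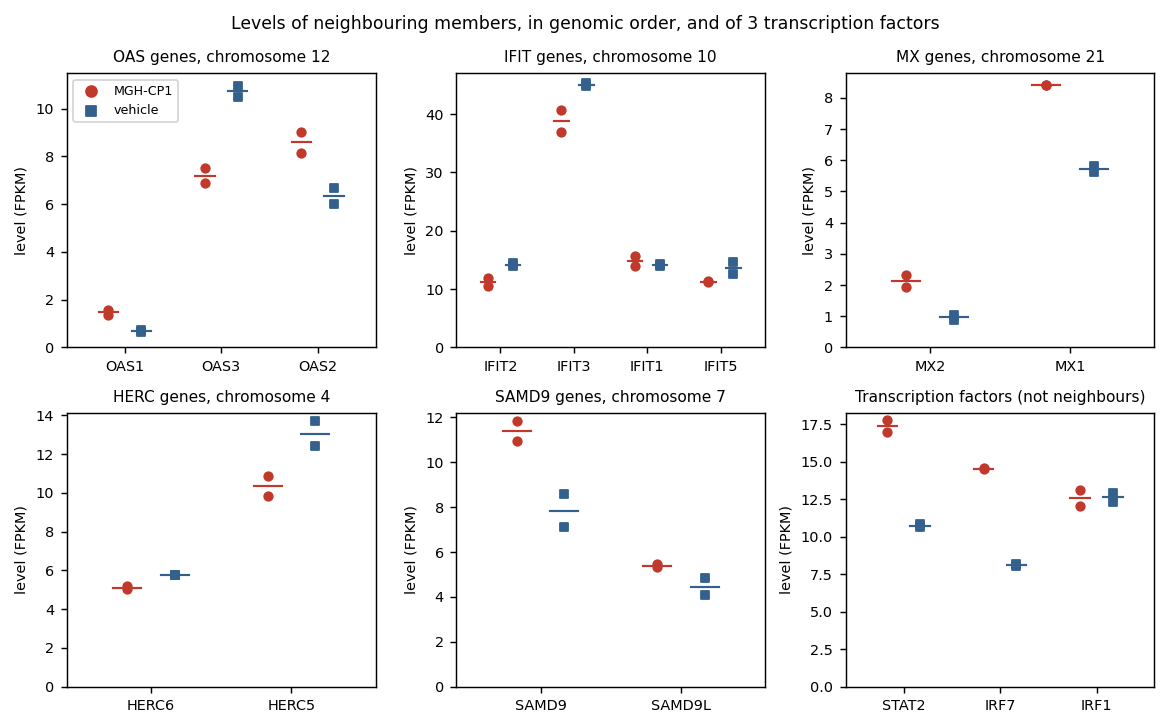
Level (FPKM, axes from 0) of neighbouring genes in genomic order and of 3 transcription factor genes, with MGH-CP1 as red circles left of vehicle as blue squares; points are libraries and lines are means of 2. OAS3 is lower with MGH-CP1 while OAS1 and OAS2 on either side are higher.

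Other effectors that passed were higher. IFI35 (ENSG00000068079, chromosome 17, 41158742 to 41166473, plus strand), a binding partner of NMI, had 26.7 and 26.4 FPKM with MGH-CP1, against 17.1 and 14.3 FPKM with vehicle. Its log2 fold change of 0.73 ± 0.09 was second to IRF7 (limma, adjusted p = 0.000677), although the vehicle libraries differed more from each other than the MGH-CP1 libraries did. ISG20 (ENSG00000172183, chromosome 15, 89179384 to 89199714, plus strand), a 3′ exonuclease of single-stranded RNA, had 1.89 and 2.21 FPKM with MGH-CP1, against 1.47 and 0.877 FPKM with vehicle. Its log2 fold change was 0.50 ± 0.16 (limma, adjusted p = 0.0396), and the call was lost in 5 of 14 alternatives, among them the fits that left out MGH-CP1 replicate 1, MGH-CP1 replicate 2 or vehicle replicate 2 (limma, adjusted p = 0.0725, 0.170 and 0.129). IFI27, a small membrane protein of mitochondria and the nuclear envelope, had 17.2 and 16.3 FPKM with MGH-CP1 and 14.1 and 12 FPKM with vehicle, a log2 fold change of 0.34 that was lost without MGH-CP1 replicate 1 (limma, adjusted p = 0.0906).

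The IFITM genes, inhibitors of viral membrane fusion, cluster on chromosome 11 and all had higher means with MGH-CP1. IFITM2 had 21.1 and 20.8 FPKM with MGH-CP1, against 18.4 and 14.4 FPKM with vehicle (log2 fold change 0.35), and IFITM1 had 7.57 and 7.93 FPKM with MGH-CP1, against 6.71 and 4.88 FPKM with vehicle (log2 fold change 0.38). In both, vehicle replicate 2 was the lowest library. Of the 15 alternatives, 6 lost the IFITM2 call and 7 lost that of IFITM1. With voom on the recovered reads both were lost (limma, adjusted p = 0.0523 for IFITM2 and 0.0937 for IFITM1). The same held with no mean-variance trend (limma, adjusted p = 0.0656 for IFITM2 and 0.0717 for IFITM1). IFITM3 had 157 and 129 FPKM with MGH-CP1 and 131 and 110 FPKM with vehicle, groups that overlapped (log2 fold change 0.24; limma, adjusted p = 0.117). IFITM3 was called without MGH-CP1 replicate 2 (limma, adjusted p = 0.0455) and without vehicle replicate 1 (limma, adjusted p = 0.00878). The IFITM2 call was lost without either MGH-CP1 library and without vehicle replicate 2 (limma, adjusted p = 0.108, 0.0967 and 0.0570 in that order), and so was that of IFITM1 (limma, adjusted p = 0.106, 0.157 and 0.152). IFITM1 lies wholly inside the IFITM2 entry on the same strand in the authors' table, over 1767 bases. The 3 genes are also close paralogs, so reads could be split among them. The values of IFITM1 and IFITM2 may therefore not be the levels of separate genes.

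The effectors that did not pass include the most abundant ones. BST2 had an interval of the log2 fold change of 0.02 to 0.35 (limma, adjusted p = 0.0701) and was called without vehicle replicate 2 (limma, adjusted p = 0.0172). IFI6, a mitochondrial and reticulum protein that inhibits flaviviruses, had 18.1 and 18.2 FPKM with MGH-CP1 and 16.3 and 18 FPKM with vehicle. IFI44, whose product binds FKBP5, had 5.55 and 5.35 FPKM with MGH-CP1 and 4.49 and 5.61 FPKM with vehicle. Neither passed (limma, adjusted p = 0.394 for IFI6 and 0.50 for IFI44). Its neighbour IFI44L was below the limit for testing, with 18 and 11 reads with MGH-CP1 and 7 and 8 reads with vehicle. The summed 29 reads with MGH-CP1 (95% Poisson interval 19.4 to 41.6) and 15 with vehicle (8.40 to 24.7) had intervals that overlapped. Such overlap is no test of a difference. The means of IFI44L in FPKM were 1.98-fold apart. Its groups did not overlap, as for 74.1% of all genes tested. RSAD2, which encodes the antiviral enzyme viperin, had 60 and 59 reads with MGH-CP1 and 45 and 63 reads with vehicle. Intervals on reads cover counting error only.

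ISG15, HERC5 and HERC6 were lower or not called. ISG15 had 144 and 145 FPKM with MGH-CP1 and 140 and 138 FPKM with vehicle, and the interval of its log2 fold change ran from -0.07 to 0.18 (limma, adjusted p = 0.458). Its groups did not overlap, but the means differed only 1.04-fold. HERC5, the main ligase for ISG15 in human cells, had 9.83 and 10.9 FPKM with MGH-CP1, against 12.4 and 13.7 FPKM with vehicle, a log2 fold change of -0.31. The call was lost without MGH-CP1 replicate 1 and without vehicle replicate 2 (limma, adjusted p = 0.138 and 0.0509). HERC6, its neighbour on chromosome 4, had 5.06 and 5.18 FPKM with MGH-CP1 and 5.78 and 5.77 FPKM with vehicle (limma, adjusted p = 0.184). UBA7, the activating enzyme for ISG15 and no member of the set, rose to 9.84 ± 0.186 FPKM with MGH-CP1, against 6.06 ± 0.315 FPKM with vehicle (SD, n = 2 each).

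Of the RNA sensors, IFIH1 rose and DDX58 did not pass. IFIH1, which encodes MDA5, a receptor for long double-stranded RNA, had 5.31 and 5.82 FPKM with MGH-CP1, against 4.45 and 3.78 FPKM with vehicle (log2 fold change 0.36). The call was lost on leaving out MGH-CP1 replicate 1, MGH-CP1 replicate 2 or vehicle replicate 2 (limma, adjusted p = 0.0576, 0.145 and 0.0800). DDX58, which encodes RIG-I, a receptor for RNA with 5′ triphosphates, had 16.2 and 16.7 FPKM with MGH-CP1 and 15.6 and 18.1 FPKM with vehicle, with an interval of -0.22 to 0.17. The chemokine genes CXCL10 and CXCL11, whose products attract T cells through CXCR3, were near the limit for testing. CXCL11 had 1.62 and 1.17 FPKM with MGH-CP1 and 1.28 and 2.11 FPKM with vehicle (limma, adjusted p = 0.509), and CXCL10 had 13 and 18 reads with MGH-CP1 and 12 and 17 reads with vehicle. XAF1, which antagonizes the apoptosis inhibitor XIAP, had 1.92 and 1.99 FPKM with MGH-CP1 and 1.75 and 1.97 FPKM with vehicle. For CXCL10, CXCL11 and XAF1 alike the groups overlapped.

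The interferons themselves were almost absent from these libraries. Of 21 interferon genes in the table, 19 had no read in any library, among them IFNB1 and every gene of the alpha family listed, which allows up to 3 reads per library for each. IFNG had 2 reads in each group summed over its libraries and IFNL1 had 1 read in a vehicle library, so a change in interferon mRNA was not detectable at this depth.

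Receptor and kinase genes were higher or not called. Of 11 tested, 6 rose (54.5%, against 20.0% of all genes tested) and 5 did not pass. None fell with limma, against 25.1% of all genes tested, and none fell at an unadjusted p under 0.05. The median log2 fold change was 0.19. IFNGR1, the ligand-binding chain of the interferon gamma receptor, rose to 34.7 ± 2.34 FPKM with MGH-CP1, against 25.4 ± 1.35 FPKM with vehicle (SD, n = 2 each), and IFNLR1, the receptor of type III interferons, rose to 1.99 ± 0.00939 FPKM with MGH-CP1, against 1.18 ± 0.00769 FPKM with vehicle. The type I receptor genes did not pass, with IFNAR1 at 18.8 ± 0.150 FPKM with MGH-CP1 and 18.2 ± 0.438 FPKM with vehicle, and IFNAR2 at 1.93 ± 0.166 FPKM with MGH-CP1 and 2.07 ± 0.0843 FPKM with vehicle. JAK1, TYK2 and STAT3 rose by small amounts, with log2 fold changes of 0.25, 0.19 and 0.19. These calls were lost without either MGH-CP1 library (limma, adjusted p = 0.117 and 0.0536 for JAK1, 0.157 and 0.172 for TYK2, 0.213 and 0.116 for STAT3, without replicate 1 and without replicate 2), and so was that of IFNLR1 (limma, adjusted p = 0.0813 and 0.0862). JAK2 stood at 1.69 ± 0.0547 FPKM with MGH-CP1 and 1.62 ± 0.429 FPKM with vehicle (limma, adjusted p = 0.819).

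Genes that sense nucleic acids upstream of interferon, or pass that signal on, changed in both directions. Of 16 tested, 8 were higher (50%) and 2 lower (12.5%). The shares among all genes tested were 20.0% and 25.1%. TMEM173, which encodes STING, rose to 13.9 ± 0.000906 FPKM with MGH-CP1, against 7.45 ± 0.118 FPKM with vehicle, an increase of 0.82 ± 0.07 on the log2 scale (limma, adjusted p = 0.000136). MB21D1, which encodes cGAS, the enzyme that makes the messenger for STING, fell to 13.9 ± 0.180 FPKM with MGH-CP1, against 23.5 ± 0.473 FPKM with vehicle, a change of -0.71 ± 0.06 on the log2 scale (limma, adjusted p = 0.000152). The ratio of TMEM173 to MB21D1 was 1.01 and 0.989 with MGH-CP1 and 0.319 and 0.317 with vehicle, so their levels were nearly equal with MGH-CP1 and MB21D1 was the more abundant with vehicle. AIM2, a sensor of cytosolic DNA, rose to 4.81 ± 0.391 FPKM with MGH-CP1, against 2.56 ± 0.0691 FPKM with vehicle. MAVS, the adaptor of DDX58 and IFIH1, rose to 68.6 ± 5.17 FPKM with MGH-CP1, against 50.7 ± 0.558 FPKM with vehicle. TRAF3, a ligase in the same pathway, fell to 14.2 ± 1.26 FPKM with MGH-CP1, against 19.1 ± 0.403 FPKM with vehicle. IRF3, the factor that first switches on interferon genes, stood at 19.8 ± 1.12 FPKM with MGH-CP1 and 19.8 ± 2.28 FPKM with vehicle.

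Among 11 tested negative regulators 2 rose (18.2%) and 3 fell (27.3%), shares near the 20.0% and 25.1% of all genes tested. The 3 that fell encode tyrosine phosphatases that can act on JAK or STAT proteins: PTPN2, with a log2 fold change of -0.42, PTPN11, with -0.39, and PTPN1, with -0.37. PTPN11 overlaps the abundant RPL6, which was also called lower, over 488 bases on the other strand. TRIM21, a ubiquitin ligase and antibody receptor, rose by 0.48 and PIAS3, an inhibitor of STAT3, by 0.35 on the log2 scale. The TRIM21 call was lost without MGH-CP1 replicate 1 (limma, adjusted p = 0.0974). The feedback inhibitors of JAK kinases did not pass, with SOCS1 at 7.48 ± 0.436 FPKM with MGH-CP1 and 7.63 ± 0.486 FPKM with vehicle and SOCS3 at 12.7 ± 0.312 FPKM with MGH-CP1 and 12 ± 0.348 FPKM with vehicle. USP18, which removes ISG15 and blocks the type I receptor, was below the limit for testing with 54 reads summed over the MGH-CP1 libraries and 48 over the vehicle libraries.

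**Figure D4:**
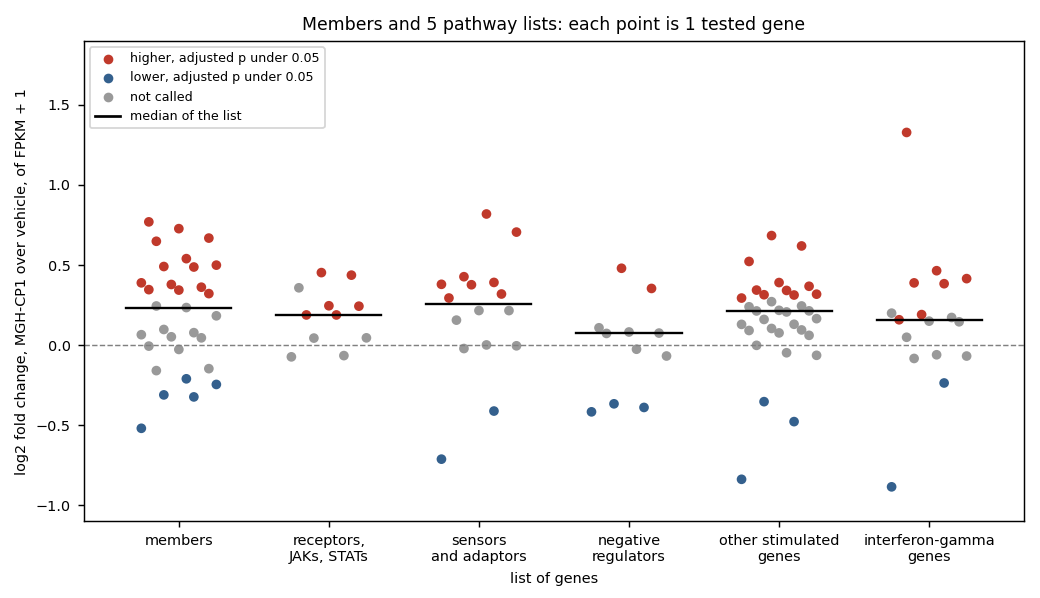
Log2 fold change of MGH-CP1 over vehicle for each tested gene of the set and of 5 pathway lists; red genes were called higher, blue lower and grey not called, and black lines are medians. The medians lie between 0.07 for negative regulators and 0.26 for sensors and adaptors, and every list but that of receptors, JAKs and STATs holds genes called lower.

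Interferon-stimulated genes outside the set had 11 of 33 tested higher (33.3%) and 3 lower (9.09%), against 20.0% and 25.1% of all genes tested. Their median log2 fold change was 0.21, and no test compared them with the set. HELZ2, a helicase, rose to 31 ± 1.01 FPKM with MGH-CP1, against 18.9 ± 0.222 FPKM with vehicle (log2 fold change 0.68), followed by UBA7 at 0.62 and PARP10 at 0.52. PARP10 overlaps GRINA on the other strand, which was more abundant and also called higher. PNPT1, an exonuclease that degrades mitochondrial RNA, fell most, to 4.19 ± 0.457 FPKM with MGH-CP1, against 8.25 ± 0.00591 FPKM with vehicle (log2 fold change -0.84). TRIM14, an adaptor at mitochondria, fell by 0.48 and PLSCR1, a lipid scramblase, by 0.35 on the log2 scale. TRIM14 overlaps NANS, also called lower, on the other strand, and the PLSCR1 call was lost without MGH-CP1 replicate 2 (limma, adjusted p = 0.124). EIF2AK2, which encodes the RNA-activated kinase PKR, stood at 17.8 ± 0.892 FPKM with MGH-CP1 and 17.8 ± 1.22 FPKM with vehicle (limma, adjusted p = 0.993). IRF3, SOCS1, EIF2AK2 and PSMB8 also overlap other expressed genes on the opposite strand, so part of their reads may be shared. IFNAR2 and TAP2 each overlap a further entry of the same name on the same strand. Those entries were listed at a mean of 0.0109 FPKM for IFNAR2 and 0 FPKM for TAP2 over the 4 libraries. How reads were divided between the entries is not given.

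Genes best known from the interferon gamma response had 7 of 17 tested members higher (41.2%) and 2 lower (11.8%), against 20.0% and 25.1% of all genes tested. Their median log2 fold change was 0.16. The guanylate-binding protein gene GBP2 had the largest change among the set and the pathway lists. It rose 2.58-fold, to 53.4 ± 2.02 FPKM with MGH-CP1, against 20.7 ± 0.545 FPKM with vehicle (log2 fold change 1.33 ± 0.06; limma, adjusted p = 1.93e-05). GBP4 rose by 0.42, a call lost without MGH-CP1 replicate 2 (limma, adjusted p = 0.0841), and TAPBP, which loads peptides onto MHC class I, by 0.46 on the log2 scale. TAP2, a subunit of the peptide transporter, fell to 6.72 ± 0.415 FPKM with MGH-CP1, against 13.2 ± 0.131 FPKM with vehicle, with a log2 fold change of -0.88. PSMB8, an immunoproteasome subunit, fell by 0.24 on the log2 scale, a call lost without either MGH-CP1 library (limma, adjusted p = 0.0507 without replicate 1 and 0.157 without replicate 2).

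Of the 19 member calls, 6 held in all alternatives in which the gene was tested. MX2, which reached the limit for testing only through the MGH-CP1 libraries, was not tested with the 5 FPKM filter. The 6 genes were IRF7, IFI35, STAT2, MX1, MX2 and OAS3. The number of members called was 6 higher and 1 lower with no filter on low values (the same genes and OASL), 9 and 1 when MGH-CP1 replicate 1 was left out, and 8 and 3 when MGH-CP1 replicate 2 was. The count of lower members was also 3 without vehicle replicate 2.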

How the data were processed

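RNA of MDA-MB-231 cells was measured in 4 libraries, 2 with MGH-CP1 and 2 with vehicle. Values are FPKM per gene, computed by the authors and deposited as a single table. Per the submitters' processing notes, CASAVA 1.8 and STAR were used with build hg19, with no role given; for the read counter, annotation and use of strand, the sources used here give nothing. FPKM multiplied by the listed gene length gave whole reads for 100% of values (tolerance 0.001), and these reads give the depths and counts stated.

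Genes averaging 1 FPKM or more over the libraries were tested with limma 3.58.1 in R 4.3.3 on log2(FPKM + 1) with a mean-variance trend, two-sided, with Benjamini-Hochberg adjustment over 11790 genes and a threshold of 0.05. Log2 fold changes are MGH-CP1 over vehicle. The fit was also run on simulated data whose spread was set the same for all genes and both groups, so that run does not measure the error of these calls. The members and lists were chosen with earlier results of these data known. Members with the 8 largest called changes get full statistics; from the pathway lists, preset genes and the 3 largest called changes in each direction per list are named, save for an item not reported here. Between replicates the median chi-square over genes was 1.05 with MGH-CP1 and 1.78 with vehicle, against 0.455 from sampling alone, so no library was a repeat of another. Alternatives were other pseudocounts (0.1 and 5), filters and scalings, no trend, voom on the recovered reads, a replicate block and each library left out. Of 207 list entries, 9 were not matched by symbol; 29 symbols in the table look like dates.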

Additional observations from a re-analysis of the deposited data

How the results depend on the processing

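With no filter on low values, 6 members were higher and 1 lower, 21 pathway genes were higher, 1568 of all genes were higher, and the median log2 fold change of members was 0.10; it was 0.14 with a filter of 5 FPKM. Lower members numbered 3 with quantile normalization and 3 with no mean-variance trend. Leaving out each library in turn gave 8 to 15 higher and 1 to 5 lower members, a member median of 0.14 to 0.25, 17 to 37 higher and 8 to 11 lower pathway genes, and 1460 to 2556 higher and 2052 to 3087 lower genes in all. The cause was not tested. Calls were lost in at least 1 alternative for 13 of the 19 members called, and 3 members not called (IFITM3, BST2 and SAMD9L) passed in some.

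No member called in the main test, and no named pathway gene called in it, changed direction in these 15 alternatives. Some genes that were not called did. IRF1 had a log2 fold change of 0.0080 without mitochondrial genes, 0.0171 with median-of-ratios scaling, 0.0422 with quantile normalization and -0.0625 to 0.0511 with a library left out. EIF2AK2 had 0.0131, 0.0224 and 0.0605 in those 3 scalings and -0.0670 to 0.0652 with a library left out. IRF3 had -0.0267 rescaled to TPM, -0.000897 with voom and -0.110 to 0.114 with a library left out. Quantile normalization gave 0.0276 for DDX58 and 0.0237 for SOCS1, and leaving out each library gave -0.127 to 0.0743 for DDX58, -0.0826 to 0.0323 for SOCS1, -0.0120 to 0.143 for IFIT1, -0.0363 to 0.232 for IFI44, -0.0110 to 0.103 for XAF1, -0.383 to 0.0662 for CXCL11 and -0.122 to 0.213 for JAK2. The median of all genes was 0.0039 with median-of-ratios scaling and 0.0232 with quantile normalization.

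The labels do not say what the shared replicate numbers mean, and deviations of same-numbered libraries correlated at 0.0502 over 11790 genes. With the replicate block 13 members were higher and 5 lower, and 2453 of all genes were higher and 3036 lower; IFITM1 and ISG20 were no longer called (limma, adjusted p = 0.0526 and 0.0596) and IFITM3 was (limma, adjusted p = 0.00979). With 2 libraries a group, small changes and genes with few reads, such as IFI44L and CXCL10, could not be resolved at this depth.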
